A study of Mus musculus with 6 samples.

Results

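Of the 19 mouse autosomes, chromosome 4 had the largest relative gain in its share of called H3K27me3 in Ezh2 mutant against control spermatogenic cells. Its members were all calls placed on it in 4 ChIP-seq libraries: 10609 MACS2 peaks of 138591 in all (7.65%) and 69950 enriched hiddenDomains bins of 1015756 (6.89%). By library these were 2374 and 2333 peaks in controls 1 and 2 and 3345 and 2557 in mutants 1 and 2, with 17629, 17885, 18848 and 15588 bins in the same order. The chromosome was chosen because its share of coverage was higher in the mutants, so the differences between genotypes on it are described and not tested, and they support nothing beyond these libraries.

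The mark, trimethylated lysine 27 of histone H3 (H3K27me3), was mapped by ChIP-seq, the sequencing of immunoprecipitated chromatin, in spermatogenic cells of 6-week-old mice on a mixed background. Controls were MvhCre;Ezh2fl/+ (2 libraries) and mutants MvhCre;Ezh2fl/fl (2 libraries). Both groups thus carried the Cre, which is driven by the germ cell gene Mvh, and at least 1 floxed Ezh2 allele. The cells came from digested testes, were enriched with Percoll and strainers, and were 90% spermatogenic, per the labels. Meiotic and post-meiotic stages were not separated, and in such a mixture fewer cells with the mark and less of the mark per cell cannot be told apart. The input sample of each genotype was not analysed here. Whether both libraries of a genotype stem from 1 animal or 2 is not stated in the labels, so their spread may be technical, and loss of EZH2 was not measured in these files.

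H3K27me3 is laid down by Polycomb repressive complex 2 (PRC2), in which EZH2 or its paralog EZH1 is the catalytic subunit. The mark covers the promoters of developmental regulators that a cell keeps silent, often as blocks of many kilobases, and in the male germ line it lies over many genes of the somatic programme. Mouse chromosomes have their centromere at one end, from which positions are counted, so the high coordinates lie toward the telomere. The 34 chromosome 4 genes fixed as a list for this account are all on that chromosome in RefSeq's GRCm38 gene table. Along it they run from Penk, an opioid precursor gene, and Gdf6, a bone morphogenetic protein, through Pax5, Klf4, the cell cycle inhibitors Cdkn2a and Cdkn2b, Foxd3 and Tal1. Toward the far end follow Pou3f1, Grik3, Runx3, Wnt4, the muscle stem cell regulator Pax7, Prdm16 and the Notch effector Hes5. The calls are in the mm9 build, for which no annotation was used here, so no window or region below is assigned to a gene, and no sequence was read.

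The calls carry no signal height, and the read depth is unknown. A covered length moves with depth and with the caller's threshold, so each library's coverage on chromosome 4 was set against its own coverage on the 19 autosomes. With hiddenDomains that total was 53.3 and 54.1 Mb in the controls but 50.7 and 44.5 Mb in the mutants. With MACS2 it was 67.2 and 69.7 Mb against 81.7 and 64.2 Mb. Mutant 1 had the longest MACS2 coverage of the 4 libraries and mutant 2 the shortest with both callers.

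Chromosome 4 held 6.62% and 6.61% of the autosomal hiddenDomains coverage in controls 1 and 2 and 7.44% and 7.003% in mutants 1 and 2. The group means were 6.61% ± 0.00762 (SD, n = 2) and 7.22% ± 0.308 (SD, n = 2), a difference of 0.609 percentage points or 9.21% of the control share. With MACS2 the shares were 7.15% and 7.07% against 8.31% and 7.82%, a difference of 0.957 points or 13.5%. Both mutants lay above both controls with both callers, and the mutants differed from each other by far more than the controls did. Without mutant 1 the hiddenDomains difference was 0.391 points. By relative change chromosome 4 ranked first of the 19 autosomes with each caller. Next came chromosome 11, at 5.13% with hiddenDomains and 6.59% with MACS2. Across all autosomes, both mutants lay above both controls on 7 (36.8%) with hiddenDomains and on 8 (42.1%) with MACS2.

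**Figure D1:**
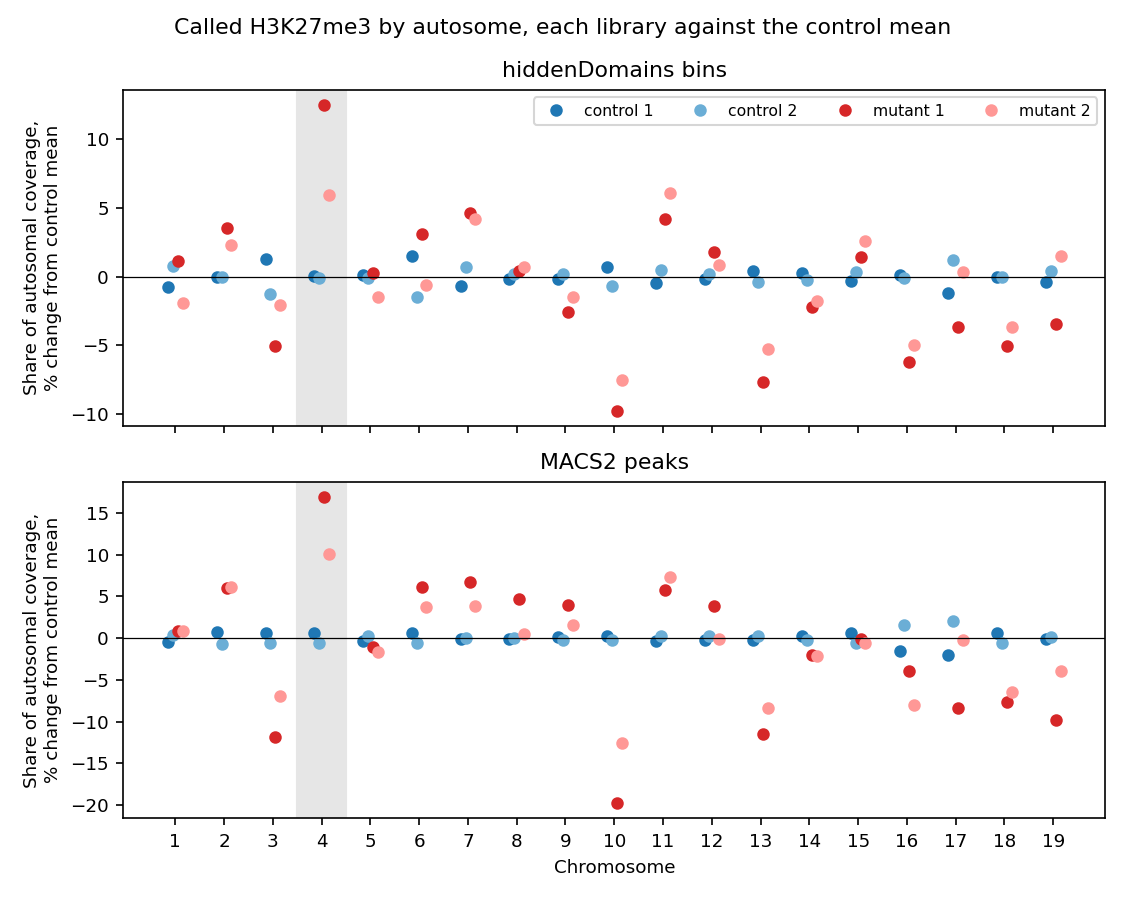
Share of each library's autosomal coverage held by each of the 19 autosomes, as a percent change from the mean of the 2 controls (vertical axis), for hiddenDomains bins (top) and MACS2 peaks (bottom); each point is 1 library, and chromosome 4 is shaded. On chromosome 4 mutant 1 lies 12.5% and 16.9% above the control mean and mutant 2 5.92% and 10.05% above it.

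A higher share was not the same as a longer coverage. In kilobases, hiddenDomains covered 3526 and 3577 kb of chromosome 4 in the controls, 3770 kb in mutant 1 and 3118 kb in mutant 2. Mutant 1 thus lay above the controls and mutant 2 below them, and the higher share of mutant 2 went with a smaller autosomal total. With MACS2 the lengths were 4799 and 4923 kb in the control libraries and 6787 and 5022 kb in the mutant ones, both above the controls. The number of calls also placed both mutants above both controls, though not in the same order within each genotype. Chromosome 4 held 7.37% and 7.34% of autosomal peaks in the control libraries and 7.92% and 7.99% in the mutant ones. For joined hiddenDomains bins, called domains from here on, the shares of the number were 7.12% and 7.27% against 7.98% and 7.65%.

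The difference was not spread evenly. In 5-Mb windows it lay in the part beyond 105 Mb and in a pair of islands closer to the centromere, while most of the remaining chromosome went the other way. By share of hiddenDomains coverage both mutants exceeded both controls in 13 of 32 windows and lay below both in 11. Over all autosomes these shares of windows were 24.3% and 47.3%. With MACS2 the counts on chromosome 4 were 12 and 15, where all autosomes gave 23.7% and 55.5%. The 13 higher hiddenDomains windows held 73.0% of the controls' chromosome 4 coverage and added 0.759 points, and the 11 lower ones held 17.7% and took away 0.151 points. Since the chromosome was chosen on this contrast, nothing is read from the counts of higher windows.

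**Figure D2:**
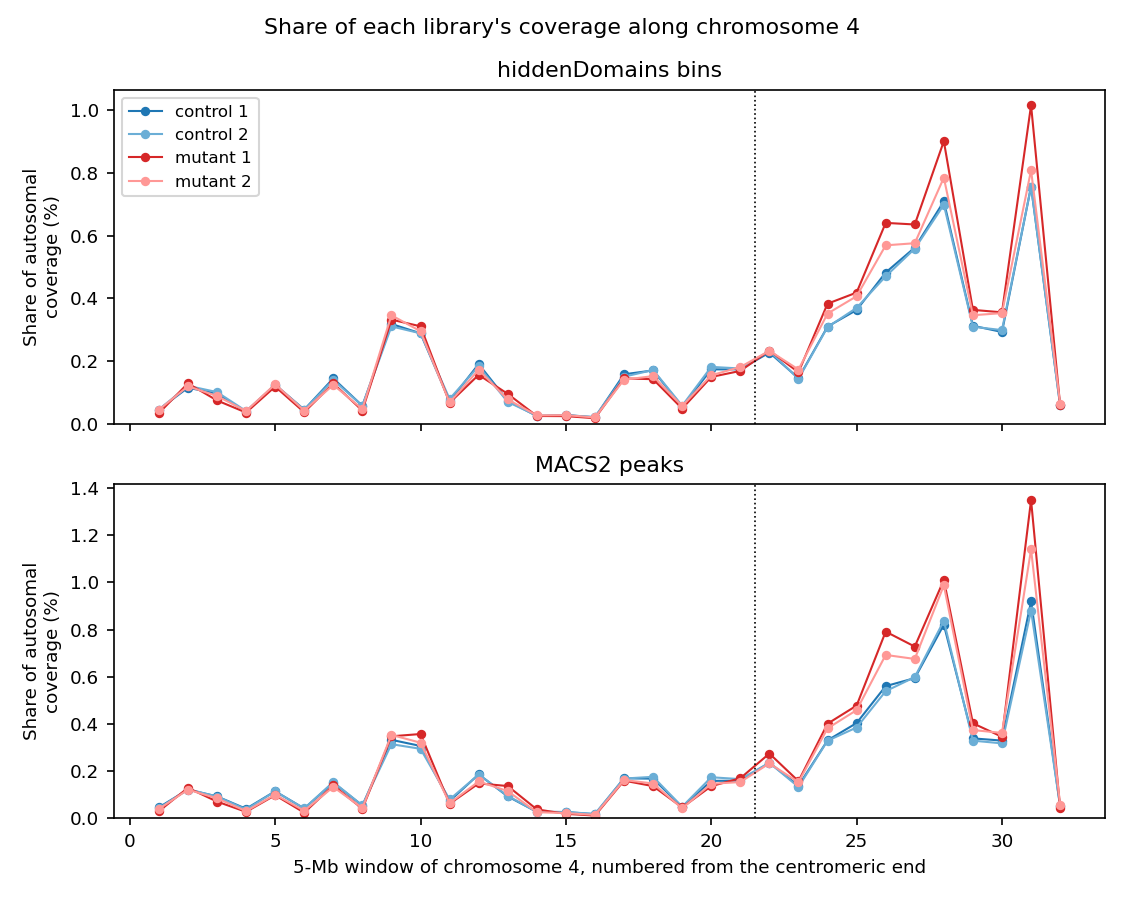
Share of each library's autosomal coverage (vertical axis, percent) in each of the 32 5-Mb windows of chromosome 4, numbered from the centromeric end; each line is 1 library, top hiddenDomains and bottom MACS2, and the dotted line marks 105 Mb. The mutants run above the controls in most windows to the right of that line, and mutant 1 reaches 1.02% and 1.35% in the window from 150 to 155 Mb.

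The 3 windows with the largest positive difference all lay in the distal part. From 150 to 155 Mb the hiddenDomains shares were 0.757% and 0.757% in the control libraries and 1.02% and 0.809% in the mutant ones, and the MACS2 shares were 0.919% and 0.880% against 1.35% and 1.14%. From 135 to 140 Mb they were 0.709% and 0.699% against 0.902% and 0.785% with hiddenDomains, and 0.821% and 0.837% against 1.01% and 0.987% with MACS2. From 125 to 130 Mb they were 0.482% and 0.470% against 0.641% and 0.569%, and 0.560% and 0.539% against 0.791% and 0.692%. In all 3 the mutants stood apart from the controls with both callers, and mutant 1 was the higher mutant. The lengths behind these shares did not all separate. In the 125 to 130 Mb window hiddenDomains covered 257 and 255 kb in the controls, 325 kb in mutant 1 and 253 kb in mutant 2. Without scaling, in fact, no 5-Mb window of chromosome 4 had both mutants above both controls with hiddenDomains and 19 had both below (all autosomes 0.994% and 73.2%). With MACS2 12 of 32 were above and 9 below (18.3% and 34.6%).

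A boundary at 105 Mb was set after these windows were seen. It is where the longest hiddenDomains run of 5-Mb windows with both mutants above both controls began. The part beyond 105 Mb made up 32.5% of the chromosome's length and 63.7% of the controls' hiddenDomains coverage on it. It was the densely marked part, with 44.4 and 45.0 kb covered per Mb in the controls against 12.2 and 12.4 kb per Mb in the remainder. Its share of autosomal coverage was 4.22% and 4.204% in the control libraries and 5.17% and 4.66% in the mutant ones, a difference of 0.707 points, or 0.454 points without mutant 1. With MACS2 the shares were 4.72% and 4.63% against 5.98% and 5.51%, a difference of 1.07 points. The remainder held 2.401% and 2.403% in the control libraries and 2.27% and 2.34% in the mutant ones with hiddenDomains, and 2.43% and 2.43% against 2.32% and 2.31% with MACS2. The distal difference was therefore larger than that of the whole chromosome, and the remainder was lower in both mutants with both callers. Both follow in part from a cut made on these values. The same holds for every count given below by distal part and remainder, so these are descriptions only.

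The islands lay between 40 and 50 Mb and between 60 and 65 Mb. From 40 to 50 Mb the hiddenDomains shares were 0.606% and 0.598% in the control libraries and 0.643% and 0.641% in the mutant ones, and those of MACS2 0.639% and 0.609% against 0.705% and 0.674%. This stretch was covered at 32.3 and 32.4 kb per Mb in the controls, more densely than any other stretch of the remainder described here. From 60 to 65 Mb the shares were 0.0728% and 0.0691% against 0.0947% and 0.0768%, and 0.0927% and 0.0949% against 0.137% and 0.115%. That window was sparse, at 7.76 and 7.48 kb per Mb in the controls.

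Around the islands the mutants were lower. Before 40 Mb the hiddenDomains share was 0.662% and 0.667% in the control libraries and 0.594% and 0.628% in the mutant ones. Between 50 and 60 Mb it was 0.261% and 0.262% against 0.222% and 0.239%, and between 65 and 105 Mb 0.798% and 0.806% against 0.715% and 0.755%. In all 3 stretches the groups did not overlap with either caller. These stretches are what was left once the higher windows were set aside, so their direction is set in part by that choice. The 5-Mb windows with the largest negative difference ran from 95 to 100, 85 to 90 and 55 to 60 Mb. There the share lay 14.5%, 14.0% and 12.3% below the control mean with hiddenDomains, and 15.1%, 17.5% and 18.2% below it with MACS2. In the 85 to 90 Mb window hiddenDomains covered 90.4 and 92.6 kb in the control libraries and 71.8 and 67.4 kb in the mutant ones, so that there the covered length was lower too.

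In 1-Mb windows coverage was scaled to the mean autosomal total of the 4 libraries, and windows averaging 5 kb or more were kept. On chromosome 4 with hiddenDomains, 38 of 106 windows had both mutants above both controls and 38 had both below. The shares over all autosomes were 24.2% and 38.5%. With MACS2 there were 37 above and 44 below of 113, beside 21.9% and 46.7%. Of the 106 windows kept with both callers, 31 were above with both, 30 were below with both and 1 had opposite orders. Of the 44 hiddenDomains windows beyond 105 Mb 27 were above and 8 below, and of the 62 others 11 and 30. The longest run of windows above both controls with hiddenDomains was 8 windows from 123 to 131 Mb, and with MACS2 7 windows from 124 to 131 Mb. The longest run below both controls was 5 windows from 85 to 90 Mb with hiddenDomains and 4 with MACS2, both from 12 to 16 Mb and from 21 to 25 Mb. Without scaling, hiddenDomains gave 7 windows above and 60 below (all autosomes 4.05% and 64.6%), and MACS2 32 above and 29 below of 114 (19.5% and 34.8%).

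By hiddenDomains the largest difference of any 1-Mb window of chromosome 4 lay between 125 and 126 Mb, and by MACS2 between 153 and 154 Mb, at 102 kb against 81.7 kb in the former. Scaled hiddenDomains coverage there was 43.5 and 40.6 kb in the control libraries and 97.6 and 73.7 kb in the mutant ones. With MACS2 it was 108 and 97.8 kb against 207 and 163 kb. Before scaling the hiddenDomains lengths were 45.8 and 43.4 kb against 97.6 and 64.8 kb, so both mutants were higher here on every scale used. The next windows by hiddenDomains ran from 153 to 154, 139 to 140, 136 to 137 and 140 to 141 Mb. From 153 to 154 Mb the scaled hiddenDomains coverage was 84.4 and 76.7 kb against 132 and 96.3 kb, and that of MACS2 157 and 150 kb against 294 and 216 kb. From 139 to 140 Mb, the most densely covered of these, it was 122 and 114 kb against 173 and 129 kb. With scaling the mutants stood clear of the controls in each, but from 139 to 140 Mb mutant 2 lay close to control 1. Its unscaled hiddenDomains length there, 113 kb, was below the 128 and 122 kb of the controls. From 153 to 154 Mb its unscaled 84.6 kb lay between their 88.8 and 82 kb. From 140 to 141 Mb its 92.6 kb equalled that of control 2. From 136 to 137 Mb its 69.8 kb was above their 66.6 and 65.6 kb.

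Among windows whose groups did not overlap with either caller, the 5 largest negative differences by hiddenDomains were smaller in size and more scattered. The window from 150 to 151 Mb, at -6.64 kb with hiddenDomains, is not among them, since its groups overlapped with that caller. With MACS2 both mutants were above both controls there, by 12.5 kb on average. From 58 to 59 Mb the scaled hiddenDomains coverage was 28.0 and 24.9 kb in the control libraries and 16.8 and 18.4 kb in the mutant ones, and that of MACS2 36.1 and 34.7 kb against 17.4 and 22.1 kb. From 85 to 86 Mb it was 14.1 and 14.8 kb against 8.60 and 10.01 kb with hiddenDomains, but 17.4 and 18.8 kb against 16.3 and 15.5 kb with MACS2, a difference of -2.19 kb. The remaining 3 lay in the distal part, from 122 to 123, 132 to 133 and 149 to 150 Mb, where differences were between -4.97 and -6.38 kb with hiddenDomains. From 132 to 133 Mb, for example, coverage was 55.1 and 55.9 kb against 48.2 and 51.2 kb. The distal part was therefore not uniform: neighbouring megabases went in opposite directions.

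**Figure D3:**
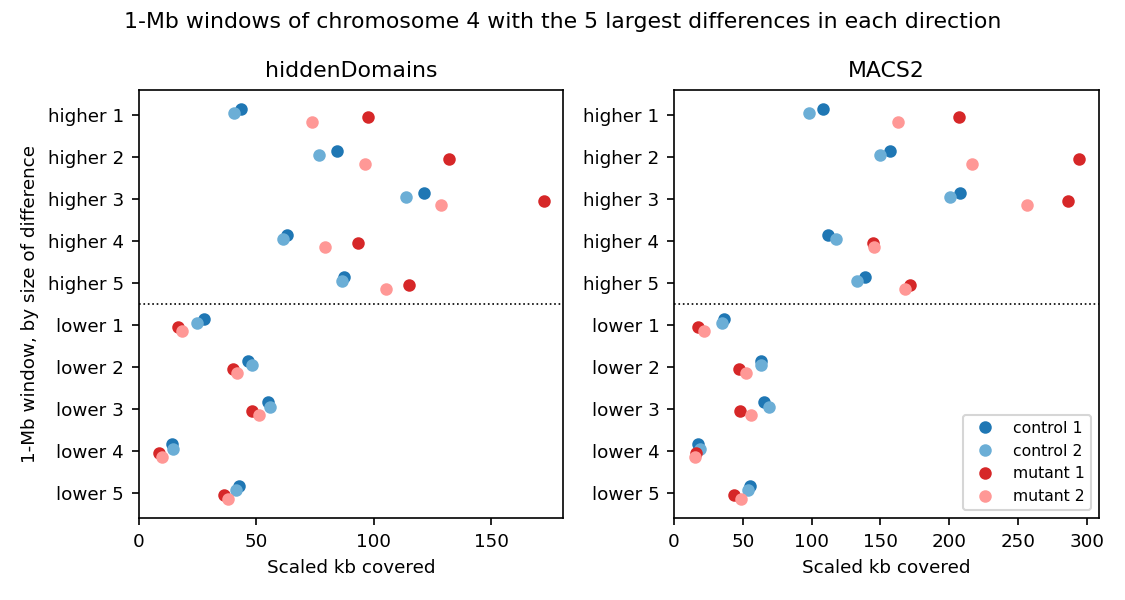
Scaled kb covered (horizontal axis) in the 1-Mb windows of chromosome 4 with the 5 largest positive (top) and the 5 largest negative hiddenDomains differences (bottom), for hiddenDomains (left) and MACS2 (right); each point is 1 library. Only windows whose groups did not overlap with either caller were ranked. In the top window, from 125 to 126 Mb, the mutants sit at 97.6 and 73.7 kb and the controls at 43.5 and 40.6 kb with hiddenDomains.

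A limma fit on log2(scaled kb + 1) over all autosomal windows was used to count windows past a Benjamini-Hochberg adjusted p of 0.05. On chromosome 4 it reads the same coverage values by which the chromosome was chosen, so its calls and standard errors there are a description and no test, and nothing is read from them. Of the 106 chromosome 4 windows, 8 were called higher and 4 lower in the mutants, beside 5.55% and 9.00% of all 1801 windows. All 8 higher windows and 1 of the 4 lower ones lay beyond 105 Mb. With MACS2 19 were called higher and 12 lower of 113, beside 9.83% and 15.3%, and 15 of the 19 lay in the distal part. Unscaled hiddenDomains coverage gave 1 higher, in the distal part, and 17 lower, beside 0.0555% and 23.8% of all windows. Over all autosomal windows the log2 difference had a median of -0.05 with scaling and -0.22 without. The counts depended on the libraries. A fit without 1 library leaves a genotype with a lone library, so only its median log2 difference is given. Over chromosome 4 windows this was -0.046 without mutant 2, 0.035 without mutant 1, 0.026 without control 2 and -0.018 without control 1. Over all windows it was -0.095, -0.015, -0.041 and -0.055 in the same order.

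At 100 kb, with a mean of at least 1 kb, the same fit called 22 windows higher and 15 lower of 582 on chromosome 4, beside 1.87% and 3.72% of 9061. With MACS2 it called 40 higher and 8 lower of 675, beside 3.71% and 2.41%. Of these, 20 and 33 of the higher windows lay beyond 105 Mb. Without scaling no window of chromosome 4 was called by limma, while 22 of 587 were higher and 132 lower at an unadjusted p under 0.05, beside 224 and 2535 of 9150 over all autosomes. The median scaled log2 difference on chromosome 4 was -0.007 without mutant 2, 0.048 without mutant 1, 0.044 without control 1 and 0.055 without control 2. Over all 100-kb windows it was -0.060, 0.021, -0.007 and -0.002 in the same order.

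Of the 100-kb windows ordered by that fit, the first 3 in each direction are given as values. From 125000001 to 125100000 scaled hiddenDomains coverage was 0.761 and 0.561 kb in the control libraries and 7.60 and 4.55 kb in the mutant ones, a log2 difference of 2.06 (SE 0.22). The stretch was almost free of bins in the controls, but not of peaks, which covered 7.53 and 13.8 kb there against 27.8 and 19.5 kb. From 124200001 to 124300000 the values were 4.37 and 3.93 kb against 10.8 and 13.2 kb (log2 difference 1.33, SE 0.13), and from 136500001 to 136600000 6.46 and 4.12 kb against 16.2 and 15.9 kb (1.46, SE 0.18). The megabase from 125 to 126 Mb held 4 called windows in all. Of these, the one from 125200001 to 125300000, named after its values were seen, went from 2.47 and 1.31 kb to 18.6 and 9.56 kb. In the other direction the window from 88000001 to 88100000 had 3.04 and 2.99 kb in the control libraries and 0.800 and 0.910 kb in the mutant ones (log2 difference -1.12, SE 0.15). From 122500001 to 122600000 the values were 4.75 and 4.30 kb against 1.80 and 1.14 kb (-1.18, SE 0.16), and from 87200001 to 87300000 3.61 and 2.99 kb against 0.800 and 1.14 kb (-1.13, SE 0.17). The named lower windows thus held under 5 kb of scaled bin coverage in every library, and the named higher ones over 4 kb in both mutants.

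Direction varied with how densely the controls were marked. Classes were set by the control mean alone, not by the mean of the 4 libraries used above. The sparsest class thus takes in windows kept only because their controls were high, and leaves out windows whose controls were under 5 kb. Its balance of above and below is set in part by that choice. Among chromosome 4 windows with 5 to 10 kb of scaled hiddenDomains coverage per Mb in the controls, 2 of 22 were above both controls and 16 below. At 20 to 40 kb 12 of 32 were above and 6 below, at 40 to 80 kb 16 of 25 and 5, and at 80 kb and more all 5 were above. On the other autosomes the share above also went up with density, from 12.7% through 25.8% and 39.9% to 41.0% in the same classes, but stayed lower in the dense ones. With MACS2 the densest class had 16 of 19 chromosome 4 windows above both controls, against 37.5% of 144 windows elsewhere, and the sparsest 2 of 23 against 7.97%. The Spearman correlation of the log2 ratio with control coverage was 0.51 over 106 chromosome 4 windows with hiddenDomains and 0.17 over 1695 elsewhere. With MACS2 it was 0.58 and 0.19. The windows share libraries and totals, and the control values enter both axes, so these are descriptions only. Within chromosome 4 dense windows are also mostly distal, so density and position cannot be told apart.

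**Figure D4:**
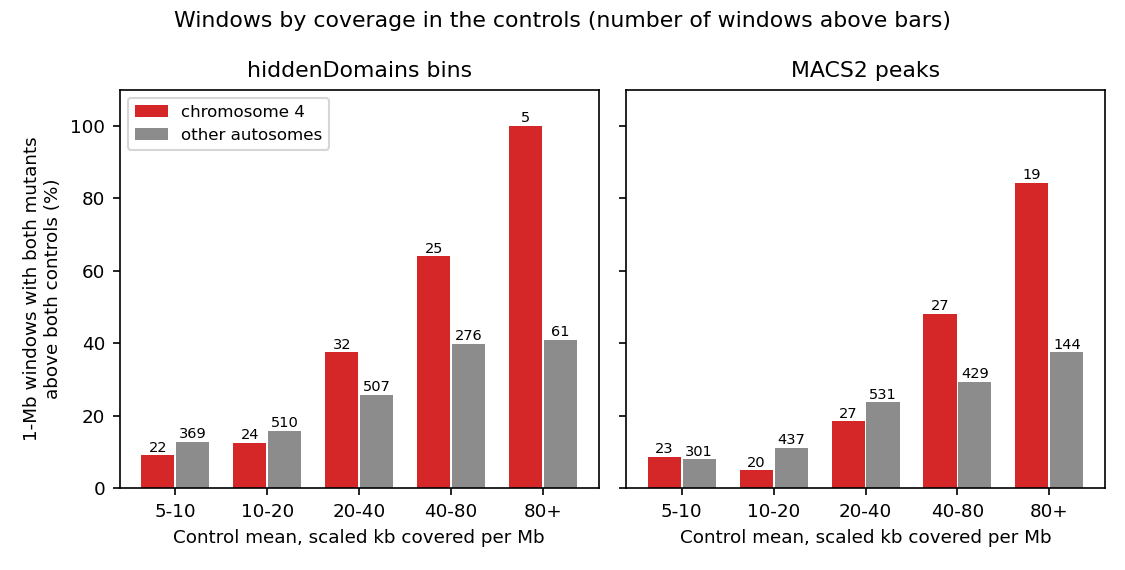
Percent of 1-Mb windows with both mutants above both controls (vertical axis) by the controls' mean scaled coverage in kb per Mb (horizontal axis), for chromosome 4 (red) and the other autosomes (grey); the number of windows stands above each bar. On chromosome 4 the percent runs from 9.09% in the sparsest class to 100% in the densest with hiddenDomains, and from 8.70% to 84.2% with MACS2.

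The next question was whether the difference came from places marked in both genotypes or from places called in the mutants alone. Peaks of the 4 libraries were merged into 4040 regions on chromosome 4. Of these 1493 (37.0%) were called in all libraries, 282 were mutant-only (called in both mutants and neither control) and 144 control-only. Over all autosomes the shares were 36.4%, 5.97% and 4.92%, so on chromosome 4 mutant-only regions made up 6.98% and control-only regions 3.56%. With hiddenDomains 1108 of 2870 regions were in all libraries, 122 (4.25%) were mutant-only and 178 (6.20%) control-only, beside 43.5%, 2.79% and 7.55%. Of the 4040 MACS2 regions 2621 lay beyond 105 Mb, as did 227 of the 282 mutant-only and 82 of the 144 control-only ones. Of the 2870 hiddenDomains regions 1945 lay there, with 98 of the 122 mutant-only and 77 of the 178 control-only ones. In the remainder of the chromosome control-only regions outnumbered mutant-only ones, by 62 to 55 with MACS2 and by 101 to 24 with hiddenDomains. Without mutant 2 the MACS2 counts were 1211 mutant-only and 195 control-only, and without mutant 1 620 and 267. Leaving out control 1 gave 432 and 313, and leaving out control 2 gave 398 and 321. With a library left out, fewer conditions define a class, so these counts have to be higher.

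**Figure D5:**
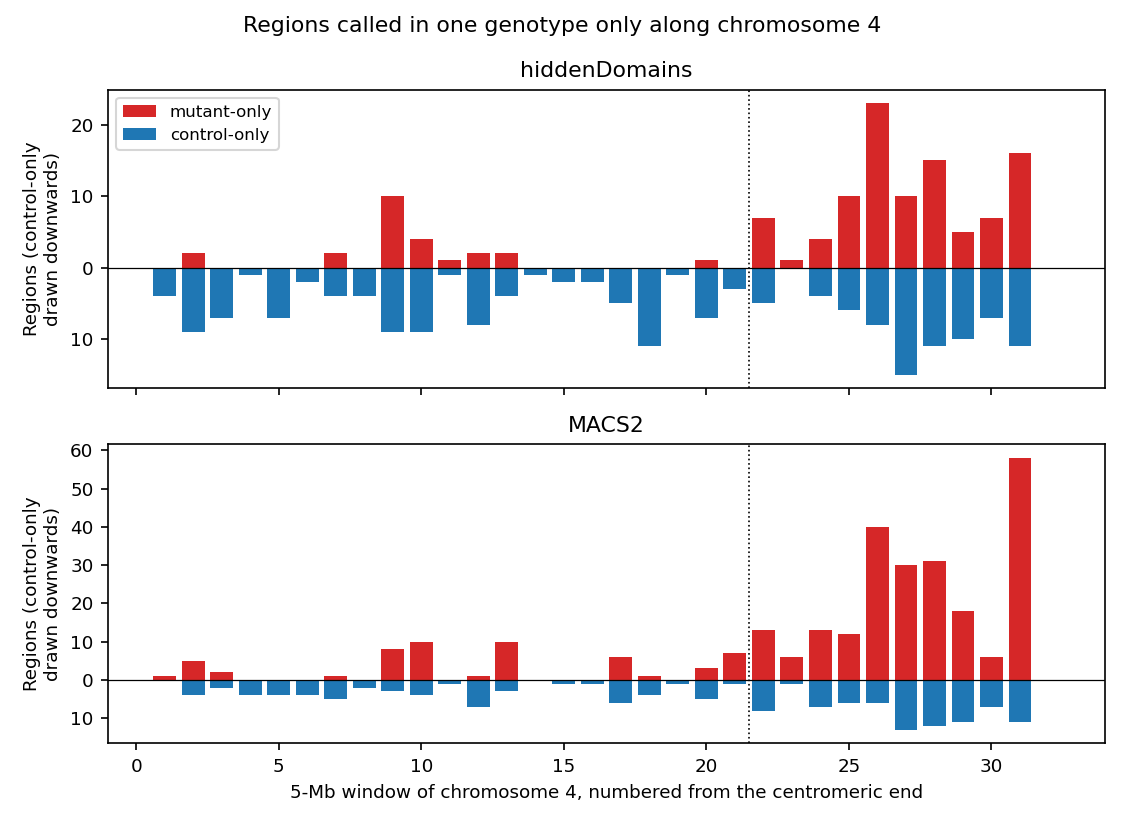
Number of merged regions called in both mutants and neither control (red, upwards) or in both controls and neither mutant (blue, drawn downwards) in each 5-Mb window of chromosome 4, numbered from the centromeric end; the dotted line marks 105 Mb. With MACS2 the window from 150 to 155 Mb holds 58 mutant-only and 11 control-only regions, and with hiddenDomains 16 and 11.

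In share of autosomal MACS2 coverage, the distal difference of 1.07 points was made up as follows. Regions called in all libraries added 0.226 points, with 4.18% and 4.14% in the control libraries and 4.21% and 4.56% in the mutant ones. Mutant-only regions added 0.382 points, at 0.408% and 0.355%, and control-only regions took away 0.113 points. By definition the former have no coverage in the controls and the latter none in the mutants. The signs of both parts are thus fixed, and only their sizes are described. All other regions, called in 1 or 3 libraries or in 1 of each genotype, added 0.576 points, with 1.36% in mutant 1 and 0.598% in mutant 2 against 0.435% and 0.375% in the controls. With hiddenDomains the same 4 parts were 0.333, 0.195, -0.132 and 0.310 points. The last part was carried by mutant 1, at 0.982% against 0.294% in mutant 2 and 0.326% and 0.330% in the controls. In mutant 2, by contrast, the hiddenDomains difference in share lay mainly in regions called in all libraries, at 4.19% against 3.76% and 3.74%. This was not particular to the distal part. Over all autosomes such regions held 94.5% of mutant 2's coverage, against 87.9% and 88.3% in the controls. In the remainder of the chromosome their share was 2.21% against 2.04% and 2.07%. Their distal length was lower in mutant 2, at 1867 kb against 2003 and 2026 kb.

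Regions called in mutant 1 alone numbered 592 in the distal part with MACS2 (22.6% of its regions) and 459 (23.6%) with hiddenDomains. The next highest library had 171 and 137. On the other autosomes mutant 1 alone accounted for 21.03% and 16.1% of regions. The distal calls of mutant 1 alone had medians of 658 bp for peaks and 600 bp for domains. Those of the other libraries alone were shorter, between 519 and 596 bp for peaks and 200 bp for domains. Bins of the highest display score made up 92.5% and 92.5% of chromosome 4 bins in the control libraries, 88.9% in mutant 1 and 90.4% in mutant 2. With only these bins kept, the chromosome 4 shares were 6.58% and 6.56% in the control libraries and 7.27% and 6.85% in the mutant ones, a difference of 0.488 points.

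Within the regions called in all libraries, covered length was compared without scaling. On chromosome 4 both mutants covered more than both controls in 306 of 1493 MACS2 regions (20.5%) and less in 425 (28.5%), beside 14.7% and 38.2% over all autosomes. In the distal part the counts were 254 longer and 218 shorter of 963, and in the remainder 52 and 207 of 530. With hiddenDomains 116 of 1108 regions were longer and 345 shorter on chromosome 4, beside 6.34% and 39.4%. In the distal part 92 of 697 were longer and 194 shorter, and in the remainder 24 and 151 of 411, so shorter regions outnumbered longer ones in both. The median covered length of a distal shared region was 2440 and 2479 bp in the control libraries and 2861 and 2468 bp in the mutant ones with MACS2. Outside the distal part it was 2134 and 2214 bp against 1998 and 1836 bp.

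The widest region called in all libraries spanned 139371862 to 139401152, where peaks covered 27.6 and 28.7 kb in the control libraries and 28.5 and 27.8 kb in the mutant ones. In the second, from 22402031 to 22429011, peaks covered 24.8 and 24.2 kb, against 25.8 and 24.9 kb in the mutants. Both blocks were covered almost alike in the 4 libraries, although the first lies in the distal part, in a megabase with a higher mutant share. The third, from 88916553 to 88942633, was less even, with 14.5 kb in control 1, 22.4 kb in control 2 and 23.6 and 22.7 kb in the mutants. Bins covered 10.05 and 12.6 kb of it in the control libraries and 16 and 14.6 kb in the mutant ones. In the fourth, from 147532447 to 147552630, peaks covered 17.7 and 19.7 kb, against 18.3 and 16.7 kb in the mutants. In the last, from 21600088 to 21620195, they covered 18.3 and 18.4 kb, against 19.8 and 20.1 kb.

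The 5 widest mutant-only regions all lay beyond 130 Mb. The widest, from 151799736 to 151805250, had 5.51 kb of peaks in mutant 1 but 0.522 kb in mutant 2, with 3 kb of bins in mutant 1 alone. The region from 152958259 to 152963709 had 5.26 and 3.94 kb of peaks in the mutants, with 1.4 and 1 kb of bins there and 0.2 kb in control 2. The others, from 130366954 to 130371824, from 154080719 to 154085304 and from 138219736 to 138224130, had bins in mutant 1 alone or in no library. None of the 5 was therefore mutant-only with both callers. In all, 20 of the 282 MACS2 mutant-only regions were also mutant-only in the bins, against 49 of the 144 control-only regions. Over all autosomes these were 209 of 3259 and 910 of 2684, close to the same shares.

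Of those 20, the widest ran from 125127414 to 125131585, inside the megabase with the largest hiddenDomains difference. It held 3.34 and 2.44 kb of peaks and 0.6 and 0.4 kb of bins in the mutants, and no call in the controls. The next, from 139739696 to 139743709, had 2.05 and 4.01 kb of peaks and 1 and 0.6 kb of bins. From 124270807 to 124273887 there were 3.08 and 2.09 kb of peaks and 1.6 and 2.2 kb of bins. A region from 42948628 to 42951652, in the first island, had 2.77 and 1.47 kb of peaks and 1.8 and 0.8 kb of bins. These 4 were named after the callers had been compared.

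Among control-only regions the 3 widest were backed by both callers. The region from 58682324 to 58685129 held 2.79 and 1.51 kb of peaks and 2.01 and 1.48 kb of bins in the controls, and no call in the mutants. It lies inside the 1-Mb window with the largest negative hiddenDomains difference. From 122586163 to 122588829 peaks covered 2.67 and 2.55 kb and bins 2.63 and 2.60 kb in the controls. It lies inside the lower 100-kb window from 122500001 to 122600000. From 107695880 to 107698437 peaks covered 1.34 and 2.56 kb and bins 0.2 and 1.2 kb. The remaining 2, from 99809402 to 99811896 and from 151015393 to 151017884, had peaks but no bin.

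Peaks on chromosome 4 were narrower in the mutants. The median was 1434.5 and 1515 bp in the control libraries and 1360 and 1325 bp in the mutant ones, a mean difference of -132 bp. On the other autosomes it was 1480 and 1561 bp against 1234 and 1315 bp, a difference of -246 bp. For domains the medians on chromosome 4 were 1400 and 1400 bp against 1200 and 1400 bp. Their number was higher: in the distal part there were 30.0 and 29.3 peaks per Mb in the control libraries and 44.4 and 35.0 in the mutant ones. Outside it there were 8.13 and 8.08 against 10.4 and 7.49, so the genotypes overlapped. Domains per Mb in the distal part were 22.8 and 23.1 against 29.9 and 22.2, where mutant 1 lay above both controls and mutant 2 below both.

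The libraries overlapped less on chromosome 4 than elsewhere. Base pairs covered in both libraries of a pair, over those covered in at least 1, were 0.664 between the controls with MACS2, against 0.706 on the other autosomes, and 0.562 between the mutants, against 0.595. Control and mutant libraries shared between 0.501 and 0.575 on chromosome 4 and between 0.549 and 0.608 elsewhere. With hiddenDomains the within-control value was 0.779 against 0.802 and the within-mutant value 0.679 against 0.735. The lower overlap thus held within genotypes as well as between them.

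The end of the chromosome was compared with the ends of the other autosomes. In the last 20 Mb the share was 19.8% above the control mean with hiddenDomains, the highest of the 19 autosomes, and 25.2% with MACS2, second to chromosome 7 at 31.4%. The other 18 had a median of -0.43% with hiddenDomains, between -14.6% and 16.2%, and of -1.26% with MACS2, between -23.5% and 31.4%. Before the last 20 Mb the share of chromosome 4 was still 4.40% and 7.55% above the control mean, second to chromosome 11 with hiddenDomains and to chromosome 6 with MACS2.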

How the data were processed

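Peaks and bins were deposited per library, not pooled. The deposited peak files hold the chromosome, start and end of MACS2 peaks, per the file headers. The bin files hold 200-bp bins of hiddenDomains, per the file names, with a score given by the authors whose meaning no source used here states. Positions are in mm9, and the submitters' processing notes list Bowtie, SAMtools and bedtools without versions. Thresholds, control tracks and depth are not stated. Each MACS2 file name carries a label of the library's own genotype, and if it names the control track, genotype and control track cannot be told apart. Samples were grouped by their titles.

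Overlapping or touching calls of a library were joined, and covered length was counted in fixed windows and in regions merged over the 4 libraries (called at 1 bp or more). Scaled coverage multiplies each library to the mean autosomal total. Windows were fitted with limma 3.58.1 in R 4.3.3 over all autosomes (empirical Bayes with trend, pseudocount 1 kb, Benjamini-Hochberg adjustment). Interval functions and fits were tested on simulated data. Other steps ran in Python 3.11.15 with numpy 2.4.6 and pandas 2.3.3. The rule for named regions takes the windows of largest difference among those whose groups do not overlap, the 100-kb windows of lowest p and the 5 widest regions of each class. The chromosome, its windows and the gene list were chosen with earlier results of these data known. Alternatives changed the caller, score, scaling, windows, minimum, pseudocount, replicate block, region rules and libraries. Same-numbered libraries did not deviate together, so the numbers were not taken to pair them.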

Additional observations from a re-analysis of the deposited data

How the results depend on the processing

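Of 101 alternatives over 11 results 62 left the value near the main one and 39 moved it. The differences in share and in width kept their sign, but the balance of counts did not hold. Of the 1-Mb hiddenDomains windows 38 were above and 38 below with scaling, and 7 and 60 without. With MACS2 these were 37 and 44 with scaling, and 32 and 29 without. By hiddenDomains 178 control-only regions outnumbered the mutant-only ones, where MACS2 gave 144 against 282. The higher chromosome 4 share (0.609 points) was 0.957 points with MACS2 and 0.306 points without the last 20 Mb of every autosome, and between 0.391 and 0.826 points with 1 library left out. The distal difference (0.707 points) was 1.07 points with MACS2 and between 0.454 and 0.960 points with 1 library left out. It was between 0.679 and 0.707 points when the distal part began 5 Mb earlier, 5 Mb later or 10 Mb later, alternatives chosen after seeing the data. Without scaling the 1-Mb windows above both controls were 6.60% and those below 56.6%, where scaling gave 35.8% each. With 1 library left out these were between 40% and 50.5%, and between 36.9% and 52.3%. Without mutant 1 50.5% were above and 41.1% below, and without mutant 2 41.3% and 52.3%. The balance thus depended on which mutant was kept.

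Mutant-only regions numbered 122 with hiddenDomains, and with 1 library left out between 398 and 1211, with control-only regions between 195 and 321. The limma calls at 1 Mb, 8 higher and 4 lower, became 19 and 12 with MACS2, 1 and 17 without scaling, and 7 lower with no coverage minimum. With 1 library left out they lay between 2 and 31 higher and between 0 and 23 lower, where the lone library of a genotype is assumed to vary like the others. At 100 kb, 22 higher and 15 lower became 40 and 8 with MACS2, and 0 and 0 by limma both without scaling and with no minimum. With a pseudocount of 0.2 kb 6 of 582 were lower, beside 1.89% of all windows. At an unadjusted p under 0.05 limma gave 22 higher and 132 lower of 587 without scaling and 82 and 102 of 797 with no minimum. Over all autosomes these were 224 and 2535 of 9150, and 853 and 2067 of 12865. With 1 library left out the 100-kb calls lay between 22 and 110 higher and between 3 and 78 lower. The cause of these shifts was not tested.

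The deviations of same-numbered libraries correlated at 0.00918 for hiddenDomains and -0.0169 for MACS2, so the numbers were not taken as a pairing. With the replicate block limma called 13 of 106 windows higher and 4 lower at 1 Mb, beside 6.22% and 9.16% of all windows. At 100 kb it called 52 of 582 higher and 22 lower, beside 4.15% and 6.01%. Depth was not known, so a region without a call may hold marked chromatin below the callers' thresholds.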
